A study of Homo sapiens with 10 samples.

Results

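A cassette exon is an internal exon that is either spliced into the mRNA or skipped together with both of its flanking introns. The exons described here were the cassette exons of 61 to 200 bp whose length is not a multiple of 3, so that including or skipping them moves the reading frame of everything downstream. The rule used the coordinates of the exon only and no measured value. It was met by 1145 of the 2969 distinct exons listed in any of 8 splicing tables, in 996 genes. The RNA-seq was made from C33A, a human cervical carcinoma cell line, 48 h after transfection with the empty vector pOPRSVI (control), or with a vector for the SWI/SNF ATPase BRG1 (BRG1-wt), BRG1 with the substitution K798R in the ATPase domain (BRG1-mut), BRM (BRM-wt) or BRM labelled with the same substitution (BRM-mut). There were 2 replicates of each, 10 libraries in all, and nothing in the labels says whether the replicates were separate transfections. All groups were transfected with a plasmid, and the study describes C33A as deficient in SWI/SNF. In each table, 1 ATPase library was compared to the control with its own replicate number, so all 4 ATPase groups share the same 2 control libraries.

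When a frame-changing exon of the coding sequence is skipped, or one that is normally left out is included, the ribosome meets a stop codon that is not the annotated one. A stop codon well upstream of the last exon junction, here called a premature stop codon, is the textbook signal for nonsense-mediated decay (NMD), which removes the mRNA. An exon that carries such a stop codon and is rarely included is often called a poison exon. A frame-changing exon in the 5' untranslated region (UTR) of a transcript changes the leader that the ribosome scans, and the same exon can bring a stop codon if it is spliced into another transcript whose start codon lies upstream of it.

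The splicing tables give, for each listed event, the percent spliced in (PSI, on a scale from 0 to 1), which is the fraction of mRNA that includes the exon. A PSI is an average over the culture, so a difference in every cell and a larger one in some of the cells cannot be told apart. The tables list only events with a Bayes factor above 10 and do not state how many reads an event had, and the depth of a PSI is therefore unknown. Since the listing itself selects exons that differ from control, no p-value is given for any change, and 2 libraries against 2 could not give a two-sided exact permutation p under 0.333. Intervals beside shares are exact 95% binomial intervals and cover counting error only, with exons as the units, which are not replicates of a condition. The transfected genes could be read in the gene tables. SMARCA4, the gene of BRG1, had a base mean (the authors' mean of normalised counts over 4 libraries) of 25802 and 29824 in the BRG1-wt and BRG1-mut tables and of 3864 and 3076 in the BRM-wt and BRM-mut tables, and SMARCA2, the gene of BRM, had 12.6, 9.33, 59658 and 75591 in the same order. These means are over 2 ATPase and 2 control libraries together, so they do not check the label of any single library or splicing table. Of 5 epithelial markers, KRT8 and KRT18 had base means from 90.8 to 696, EPCAM and CDH1 from 3.05 to 30.2, and KRT19 from 0 to 1.23. Of the leukocyte markers reported, CD3E was at 0, but PTPRC was at 1529 to 1851, and the 3 fibroblast markers COL1A1, COL1A2 and PDGFRB were at 17.6 to 280.0. The BRM-wt libraries stood apart from each other, and the main results on BRM-wt are given per replicate as well as pooled.

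Frame-changing exons made up 57.9% (55.7 to 60.1) of the 1976 listed exons of 61 to 200 bp. Among annotated internal exons of protein-coding transcripts, UTR exons included, the 88264 of that length that change the frame were 60.9% of those of 61 to 200 bp. The median length of the listed frame-changing exons was 122 bp, 26 of them were 61 or 62 bp long and 8 were at most 1 bp shorter than the upper limit, and just outside the limits lay 9 listed exons each of 58 and 59 bp, 4 of 202 bp and 8 of 203 bp. By coordinates, 1105 matched an exon of the GENCODE annotation and 40 did not, of which 20 overlapped an annotated exon. The acceptor dinucleotide AG stood before 1144 of them and the donor dinucleotide GT after 1126. At least 7 of the 9 bases around the donor site matched the consensus of CAG at the exon end and GTAAGT in the intron in 34.2% of the frame-changing exons, in 37.2% of the 831 frame-preserving exons of the same length and in 42.8% of the annotated internal frame-changing exons. Their GC content was 50.3% ± 9.55 (SD over exons), beside 50.4% ± 9.85 in the frame-preserving exons and 49.9% ± 9.63 in the annotated ones. Both the including and the skipping form were annotated for 87.1% of the frame-changing and 89.0% of the frame-preserving exons.

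The frame-changing exons differed from the frame-preserving ones in where they lay. The coding sequence held 405 of them (35.4%, 32.6 to 38.2), against 472 of the 831 frame-preserving exons (56.8%, 53.4 to 60.2). The 5' UTR held 215 (18.8%, 16.6 to 21.2) against 11.9% (9.79 to 14.3). Exons placed in transcripts annotated as NMD targets numbered 194 (16.9%, 14.8 to 19.2) against 10.8% (8.80 to 13.1). A further 181 (15.8%) were exons of non-coding transcripts and 110 (9.61%) held the annotated start or stop codon. Places come from the annotation and no measured value. Where annotated transcripts held the exon with its listed flanking junctions, only those were used, and protein-coding transcripts came before NMD and non-coding ones. An exon placed in an NMD transcript can therefore also lie in other transcripts. The intervals of both kinds of exon do not overlap for the coding sequence, the 5' UTR or the NMD transcripts.

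For 350 frame-changing exons in a complete coding transcript, the exon could be spliced out of that transcript and the frame followed to the next stop codon. Skipping placed a premature stop codon, more than 50 nt before the last exon junction, in 214 of them (61.1%, 55.8 to 66.3). In 134 others the new stop codon lay closer to that junction or beyond it, 94 of them before and 40 after the annotated stop. No stop codon was met in MAX and HDAC11. The new reading frame, with the codons read out of frame after the junction, had a median of 53.5% of the annotated length. Another 291 exons could be spliced into an annotated transcript that lacks them, and 260 of these (89.3%, 85.2 to 92.6) then carried a premature stop codon. The new stop codon lay inside the exon itself in 231 of the 291, of which 214 counted as premature. No stop codon was met in TMEM106C and REPIN1. Among the frame-preserving exons, skipping gave a premature stop codon in 1 of 431, and including one did so in 97 of 147 (66.0%). For 504 frame-changing exons no such transcript was found and nothing was computed.

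To show what a frame-changing exon does to a message, the exons of 4 genes are printed in which skipping gave a premature stop codon and whose PSI is described further on. The genome sequence (GRCh37) is given in the 5' to 3' direction of the gene, with the exon in capitals between 10 bases of each intron. ADAP2, a GTPase-activating protein for Arf, is shown with exon 3 of 11 (chr17:29253827-29253936, plus strand). GGCT, the γ-glutamylcyclotransferase of glutathione breakdown, is shown with exon 2 of 4 (chr7:30540152-30540297, minus strand). GCSH, the H protein of the mitochondrial glycine cleavage system, is shown with exon 3 of 5 (chr16:81121206-81121269, minus strand). MED20, a subunit of the Mediator complex, is shown with exon 2 of 4 (chr6:41884523-41884677, minus strand).
ADAP2 exon: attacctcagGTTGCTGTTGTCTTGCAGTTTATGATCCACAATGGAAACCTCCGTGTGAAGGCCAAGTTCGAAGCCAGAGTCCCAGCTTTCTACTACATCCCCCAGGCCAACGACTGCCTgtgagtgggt
GGCT exon: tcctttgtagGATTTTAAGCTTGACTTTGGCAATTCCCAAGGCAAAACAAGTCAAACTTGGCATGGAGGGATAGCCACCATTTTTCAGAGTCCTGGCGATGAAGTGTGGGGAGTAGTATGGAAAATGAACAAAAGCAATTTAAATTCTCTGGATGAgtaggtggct
GCSH exon: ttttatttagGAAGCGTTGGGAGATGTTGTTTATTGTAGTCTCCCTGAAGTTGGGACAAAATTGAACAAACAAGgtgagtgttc
MED20 exon: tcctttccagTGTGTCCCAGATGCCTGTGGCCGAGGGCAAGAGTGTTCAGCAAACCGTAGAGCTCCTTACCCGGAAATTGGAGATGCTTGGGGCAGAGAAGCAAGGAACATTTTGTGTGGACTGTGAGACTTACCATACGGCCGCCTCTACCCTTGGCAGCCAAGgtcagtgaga

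The next lines give the message of the same genes once the exon is gone. Each starts with the last coding bases before the skipped exon, at most 15 of them, and runs in frame through the following exon to the first stop codon, which is in capitals.
ADAP2 without the exon: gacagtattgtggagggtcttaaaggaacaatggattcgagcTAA
GGCT without the exon: gtggcccgcctgcaggcaagaaggggtTAA
GCSH without the exon: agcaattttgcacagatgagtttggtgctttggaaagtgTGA
MED20 without the exon: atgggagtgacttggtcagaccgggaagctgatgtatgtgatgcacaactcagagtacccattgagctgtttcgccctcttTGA
In ADAP2 the reading frame ended after 84 codons in place of 387, in GGCT after 51 in place of 188, in GCSH after 84 in place of 173 and in MED20 after 27 in place of 212. The distance from the new stop codon to the last exon junction was 764 nt in ADAP2, 121 nt in GGCT, 105 nt in GCSH and 184 nt in MED20. For GGCT, the message and distance hold for the downstream exon listed in BRM-wt replicate 1 (chr7:30538419-30538554).

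In other genes the last frame-changing exon before the end of the message was the one that varied, and the new stop codon then fell near or beyond the last junction. The messages without the exon are printed for 4 of them, in the same way. They are MATCAP1, a tubulin carboxypeptidase (exon 6 of 7, chr16:67211913-67212010, minus strand), PYCR1, which makes proline in mitochondria (exon 6 of 7, chr17:79892202-79892365, minus strand), RPS2, a protein of the small ribosomal subunit (exon 6 of 7, chr16:2012498-2012657, minus strand), and SUOX, the sulfite oxidase (exon 4 of 5, chr12:56396327-56396504, plus strand).
MATCAP1 without the exon: acctcgctgccaggtgtcctaTGA
PYCR1 without the exon: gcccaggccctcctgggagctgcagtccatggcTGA
RPS2 without the exon: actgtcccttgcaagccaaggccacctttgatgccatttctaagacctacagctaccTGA
SUOX without the exon: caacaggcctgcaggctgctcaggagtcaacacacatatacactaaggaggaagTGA
The frame ended after 387 codons in place of 471 in MATCAP1, after 217 in place of 319 in PYCR1, after 197 in place of 293 in RPS2 and after 30 in place of 545 in SUOX. RPS2 has many processed pseudogenes, so its reads may be split between copies.

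In the control libraries, the level of inclusion differed between the classes of coding consequence. Exons whose skipping gave a premature stop codon had a median control PSI of 0.79 (n = 214), and exons whose inclusion gave one had a median of 0.16 (n = 260). The other 671 had 0.52, and they include the 504 exons for which no consequence was computed. The same order held in each control library, with 0.78, 0.21 and 0.5 in control replicate 1 and 0.75, 0.13 and 0.53 in control replicate 2. By place, the median control PSI was 0.745 in the coding sequence, 0.32 in the 5' UTR, 0.285 in NMD transcripts and 0.38 in non-coding transcripts. Exons of the representative (MANE Select) transcript of their gene had a median of 0.755 (n = 369) and the others 0.34 (n = 776). Of the 350 exons that could be spliced out, 272 lay in a MANE Select transcript, against 5 of the 291 that could be spliced in. The classes of consequence thus largely followed this division, and the part of the stop codon itself was not tested. The listing kept only exons whose PSI differed from control in some table, so these are levels among listed exons and not among all exons of the cell. The plot of control PSI shows the curves for the 3 classes separated over most of the scale.

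**Figure D1:**
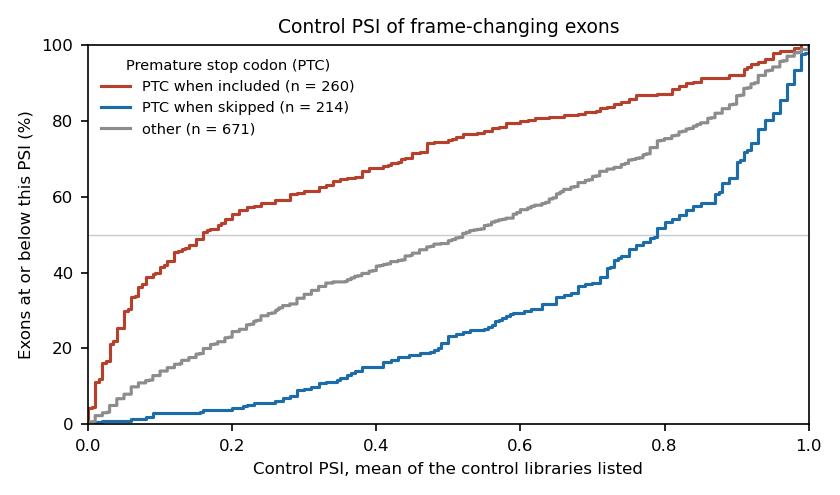
Cumulative share of frame-changing exons (y axis, percent) at or below a control PSI (x axis, mean of the control libraries in which the exon is listed). Curves are drawn for exons with a premature stop codon (PTC) when included, when skipped, and for all other exons. Those other exons include 504 for which no consequence was computed. The curves cross the 50% line at 0.16, 0.79 and 0.52.

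The control libraries themselves differed. Control PSI values of both replicates were given for 204 frame-changing exons, with medians of 0.49 in control replicate 1 and 0.59 in control replicate 2. The median absolute difference between them was 0.155, and 77 of the 204 (37.7%) differed by more than 0.2. Over all listed exons with both values the median difference was 0.13, and 206 of 615 (33.5%) differed by more than 0.2. The PSI was higher in control replicate 2 for 129 of the 204 exons and lower for 64, beside 370 and 218 of the 615. Among the frame-changing exons, the GC content was 55.9% ± 9.80 in the 129 and 49.1% ± 7.10 in the 64 (SD over exons). An exon has both values only if it was listed for each replicate, so the 204 are not a random sample of exons.

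Each ATPase library was first set against its own control. Among the frame-changing exons listed, 99 of 193 had a higher PSI than control in BRG1-wt replicate 1 (51.3%, beside 55.5% of all listed exons) and 85 of 148 in replicate 2 (57.4%, beside 56.2%). In BRG1-mut the counts were 131 of 244 (53.7%, beside 57.9%) and 130 of 232 (56.0%, beside 58.5%). In BRM-wt replicate 1, 172 of 278 were higher (61.9%, beside 60.2%), but in replicate 2 only 159 of 365 (43.6%, beside 43.0%). BRM-mut gave 85 of 175 (48.6%, beside 49.1%) and 106 of 201 (52.7%, beside 49.3%). In each of the 8 tables the share of all listed exons lay inside the interval of the frame-changing exons. The median absolute change lay between 0.22 and 0.3 in all tables. A change of at least 0.5 was found for 11.9% to 20.3% of the frame-changing exons listed, beside 11.9% to 17.0% of all listed exons.

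Exons of a group were then counted once, from either replicate and without those that went opposite ways in the replicates. A higher PSI than control was found for 168 of 310 in BRG1-wt (54.2%, 48.5 to 59.8, beside 56.1% of all listed exons) and 230 of 431 in BRG1-mut (53.4%, 48.5 to 58.2, beside 56.9%). In BRM-wt it was 245 of 477 (51.4%, 46.8 to 55.9, beside 51.0%), pooled over replicates with 61.9% and 43.6%, and in BRM-mut 182 of 352 (51.7%, 46.3 to 57.0, beside 49.1%). The frame-preserving exons gave 62.1% (56.3 to 67.6), 59.7% (54.0 to 65.3), 54.0% (63.4% and 43.7% in the replicates) and 49.8% in the same order. The intervals of both kinds of exon overlapped in every group.

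Shares of frame-changing exons with a higher PSI are given by place, without a test between places or groups. Coding exons had a higher PSI in 76 of 116 with BRG1-wt (65.5%, 56.1 to 74.1) and in 108 of 163 with BRG1-mut (66.3%, 58.4 to 73.5). In BRM-wt, 97 of 126 coding exons were higher in replicate 1 (77.0%, 68.6 to 84.0) and 31 of 127 in replicate 2 (24.4%, 17.2 to 32.8). The pooled count, 79 of 157, leaves out the exons that went opposite ways in the replicates. BRM-mut gave 62 of 127 (48.8%, 39.9 to 57.8). The frame-preserving coding exons gave 67.2% with BRG1-wt and 64.7% with BRG1-mut, 74.0% and 40.4% in the BRM-wt replicates and 44.6% with BRM-mut, so the shares above and below 50% were found in both kinds of exon.

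In the 5' UTR the counts were 32 of 56 (57.1%, 43.2 to 70.3) with BRG1-wt, 33 of 82 (40.2%, 29.6 to 51.7) with BRG1-mut, 20 of 45 (44.4%) and 43 of 74 (58.1%) in the BRM-wt replicates and 37 of 59 (62.7%, 49.1 to 74.96) with BRM-mut. Exons of NMD transcripts gave 24 of 48 (50.0%), 27 of 65 (41.5%, 29.4 to 54.4), 14 of 33 and 29 of 58 in the BRM-wt replicates, and 28 of 58 (48.3%) with BRM-mut. Exons that hold the start or stop codon were higher in 11 of 32 with BRG1-wt (34.4%), 28 of 49 with BRG1-mut (57.1%), 22 of 39 and 17 of 36 in the BRM-wt replicates and 10 of 32 with BRM-mut (31.2%). Exons of non-coding transcripts gave 21 of 50 (42%), 30 of 56 (53.6%), 14 of 27 and 34 of 61 in the BRM-wt replicates, and 38 of 62 (61.3%) in the same order. Frame-preserving 5' UTR exons gave 57.1%, 41.7% and 59.4% with BRG1-wt, BRG1-mut and BRM-mut, and 39.1% and 50% in the BRM-wt replicates. In that order, those of NMD transcripts gave 67.6%, 58.8% and 68.2%, and 50% and 38.1%. Those with the start or stop codon gave 44.4%, 48% and 46.2%, and 57.1% and 47.6%. Those of non-coding transcripts gave 42.3%, 65.6% and 60%, and 58.3% and 59.1%. For the frame-changing exons, the intervals of the coding sequence and the 5' UTR overlap in BRG1-wt and BRM-mut and do not overlap in BRG1-mut. Nor do these intervals overlap in either BRM-wt replicate, but the order turned between the replicates. The coding share was the higher in replicate 1 (77.0% against 44.4%) and the lower in replicate 2 (24.4% against 58.1%). In the 5' UTR, the separate replicates gave 45.2% and 67.7% with BRG1-wt, and 33.3% and 45.7% with BRG1-mut.

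By consequence, exons that give a premature stop codon when included were higher in 26 of 56 with BRG1-wt (46.4%), 32 of 86 with BRG1-mut (37.2%, 27.0 to 48.3), 13 of 45 and 42 of 72 in the BRM-wt replicates, and 49 of 84 with BRM-mut (58.3%, 47.1 to 69.0). The frame-preserving exons of that class gave 63.3% of 30, 50.0% of 34 and 80% of 20 in the BRG1-wt, BRG1-mut and BRM-mut groups, and 10 of 21 and 15 of 25 in the BRM-wt replicates. Exons that give a premature stop codon when skipped were higher in 35 of 59 with BRG1-wt (59.3%), 41 of 70 with BRG1-mut (58.6%), 36 of 52 and 20 of 56 in the BRM-wt replicates, and 45 of 76 with BRM-mut (59.2%). Of all listed exons, 56.1% were higher with BRG1-wt, 56.9% with BRG1-mut, 60.2% and 43.0% in the BRM-wt replicates and 49.1% with BRM-mut.

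**Figure D2:**
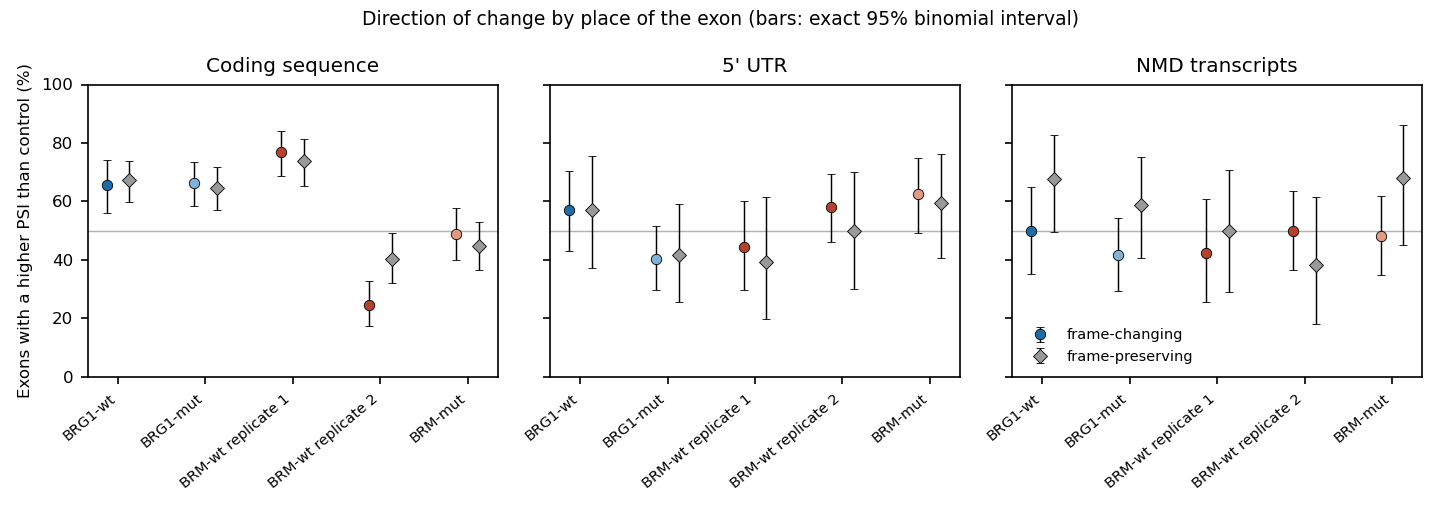
Share of exons with a higher PSI than control (y axis, percent) in each ATPase group, with the BRM-wt replicates apart, for exons in the coding sequence, the 5' UTR and NMD transcripts. Circles are frame-changing and diamonds frame-preserving exons, bars are exact 95% binomial intervals, and the coding frame-changing exons lie at 77.0% in BRM-wt replicate 1 and at 24.4% in replicate 2.

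GC content moved with the direction of change. In BRG1-wt the GC content was 52.3% ± 9.77 in the 168 exons with a higher PSI and 48.3% ± 8.38 in the 142 with a lower PSI (SD over exons), a difference of 3.99 points that was 3.96 and 3.97 points in the separate replicates. In BRG1-mut the difference was 5.49 points (6.68 and 4.97 in the replicates), and in BRM-mut it had the other sign, with 47.5% ± 8.31 against 50.7% ± 10.1 (-3.25 points). That difference was -4.28 points in replicate 1 and -2.24 in replicate 2, and -2.02 (-4.05 to 0.014) without the exons that went opposite ways in different groups. In BRM-wt the sign turned with the replicate: the exons with a higher PSI were richer in GC by 7.74 points in replicate 1, and had 47.6% ± 7.54 against 55.2% ± 9.65 in replicate 2. The frame-preserving exons showed differences of 3.74 points in BRG1-wt, 7.58 in BRG1-mut and -3.78 in BRM-mut, and in BRM-wt of 9.77 in replicate 1 and -8.69 in replicate 2. The control libraries differed from each other with GC content as well, as given above, and the part of either in the other was not tested.

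**Figure D3:**
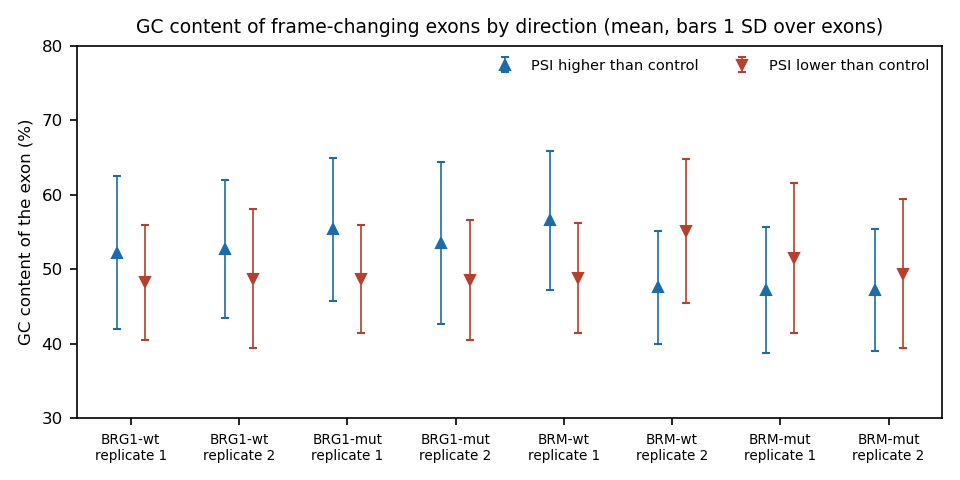
GC content (y axis, percent) of frame-changing exons with a higher (upward triangles) or lower (downward triangles) PSI than control in each of the 8 comparisons, as mean with 1 SD over exons. In BRM-wt the order of the triangles turns between replicate 1 (56.5% against 48.8%) and replicate 2 (47.6% against 55.2%).

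The share of exons with the same direction in both replicates ranged from 11.4% to 90.2% over the groups. In BRG1-mut, 41 frame-changing exons were listed in both replicates, and 37 of them went the same way (90.2%, 76.9 to 97.3, beside 92.3% of all exons listed in both), 27 with a higher and 10 with a lower PSI. The 4 that did not were in RPS2, RANBP17, PMS2P6 and PMS2P2. In BRG1-wt, 11 of 21 went the same way (52.4%, beside 52.6%), 6 higher and 5 lower, and in BRM-mut 10 of 17 (58.8%, beside 57.1%), 2 higher and 8 lower. In BRM-wt only 10 of 88 did (11.4%, 5.59 to 19.9, beside 5.3%). Of the other 78, 61 lay above control in replicate 1 and below it in replicate 2, and 17 the other way round. Over these 61 exons the mean PSI of the first replicates was 0.467 (control) and 0.828 (BRM-wt), and that of the second replicates 0.736 (control) and 0.387 (BRM-wt).

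**Figure D4:**
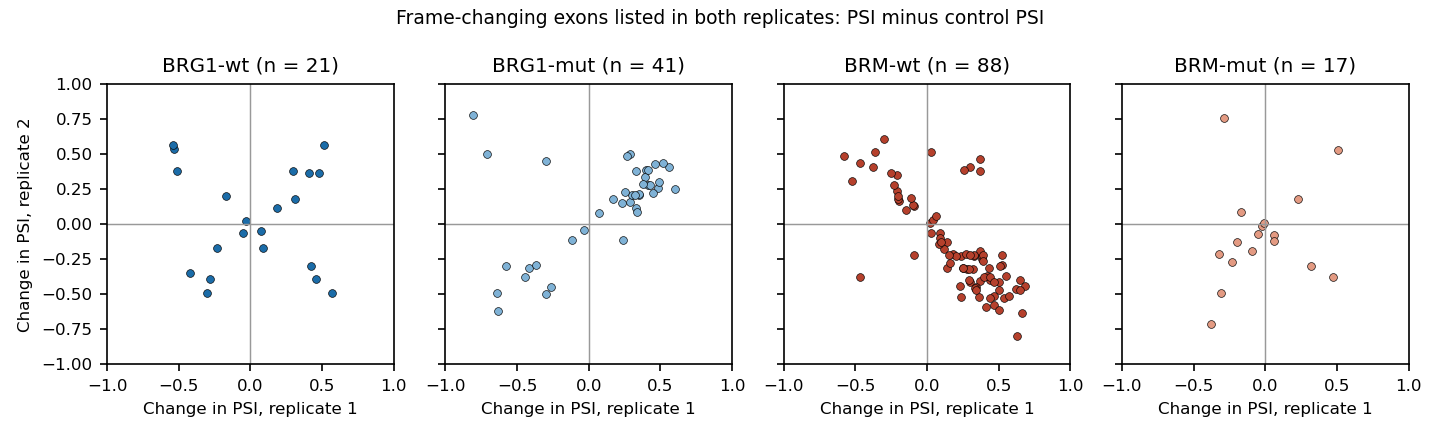
Change in PSI from the paired control library in replicate 1 (x axis) and replicate 2 (y axis), for the frame-changing exons listed in both replicates of a group, 1 point per exon. Most BRG1-mut exons lie where both changes have the same sign (37 of 41), and most BRM-wt exons where the signs differ (78 of 88).

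All 4 values were then compared without pairing. Both ATPase libraries lay above, or both below, both control libraries for 9 of 21 exons in BRG1-wt (42.9%, beside 42.1% of all exons listed in both replicates), 37 of 41 in BRG1-mut (90.2%, beside 89.5%), 9 of 88 in BRM-wt (10.2%, beside 4.95%) and 10 of 17 in BRM-mut (58.8%, beside 46.9%). In all 4 groups the share of all exons lay inside the interval of the frame-changing exons. Of the 37 exons with 1 direction in BRG1-mut, 19 were in the coding sequence (51.4%, 34.4 to 68.1), 8 held a start or stop codon and 6 were in the 5' UTR, and skipping gave a premature stop codon in 5.

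With BRG1-wt, the exons with the largest mean increase that went the same way in both replicates were in UGP2, NPIPB13 and ECSIT. UGP2 makes UDP-glucose, and its 61-bp exon lies in the 5' UTR of an annotated transcript (chr2:64069673-64069733, plus strand). The exon was listed with 2 different upstream exons. With the upstream exon at chr2:64069459-64069571, the only form listed with BRG1-wt, its PSI was 0.24 in each control library, 0.75 and 0.81 in the BRG1-wt libraries and 0.88 in BRM-mut replicate 2. With the other upstream exon it was listed only in BRM-mut replicate 2, at 0.21 against 0.04 in control. Spliced into an annotated coding transcript that lacks it, this exon would stop translation after 28 codons in place of 508. The splice sites of this exon, with its first and last bases in capitals, were as follows.
UGP2 acceptor: ttttcctggtctgtgtcaagGTA
UGP2 donor: CGGgtgggt
ECSIT is an adaptor of Toll-like receptor signalling and an assembly factor of respiratory complex I. Its exon 2 of 8 (119 bp, chr19:11629890-11630008, minus strand) holds an annotated start or stop codon, and its PSI was 0.1 and 0.28 in control, 0.51 and 0.65 with BRG1-wt and 0.49 and 0.62 with BRG1-mut. It was in none of the BRM tables. NPIPB13, of the nuclear pore complex interacting family, had an 86-bp exon at 0.12 and 0.18 in control and 0.6 and 0.55 with BRG1-wt, but the gene belongs to a family of near-identical copies and had a base mean of only 0.721 to 1.50 in the gene tables, so its reads cannot be assigned with certainty.

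The exons of PMS2P6 and TBC1D5 had the largest mean decreases with BRG1-wt. TBC1D5, a GTPase-activating protein for Rab proteins, held 5 frame-changing exons, the most of any gene. The PSI of its 94-bp 5' UTR exon (chr3:17560394-17560487, minus strand) was 0.55 and 0.46 in control and 0.13 and 0.11 with BRG1-wt. PMS2P6, a pseudogene of the mismatch repair gene PMS2, held the exon listed in the most tables, 7 of 8. The PSI of its 89-bp exon (chr7:72514920-72515008, plus strand) was 0.33 and 0.54 in control and between 0.02 and 0.05 in all 7 ATPase libraries listed. The base mean of PMS2P6 was 0.242 to 0.533, and its reads are shared with PMS2 and other copies, so the exon is uncertain.

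With BRG1-mut, the largest mean increases were in EMC4, MATCAP1 and REEP4. MATCAP1, whose shifted message is printed above, was at 0.42 and 0.53 in control and 0.94 and 0.97 with BRG1-mut. REEP4 encodes a protein that shapes the endoplasmic reticulum, and its exon 7 of 8 (155 bp) was at 0.49 and 0.56 in control, 0.95 and 0.99 with BRG1-mut, 0.96 in BRG1-wt replicate 2 and 0.98 in BRM-wt replicate 1. EMC4, a subunit of the membrane protein insertase EMC, had exon 2 of 3 (115 bp, chr15:34517737-34517851, plus strand) at 0.24 and 0.55 in control and 0.8 and 0.96 with BRG1-mut. In BRM-wt the same EMC4 exon was at 0.89 in replicate 1 and 0.15 in replicate 2, and it was at 0.13 in BRM-mut replicate 1. The MATCAP1 exon did likewise, at 0.92 and 0.12 in the BRM-wt replicates.

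The largest mean decreases with BRG1-mut were all in the 5' UTR. UBE2G2 is a ubiquitin-conjugating enzyme of the degradation of misfolded proteins of the endoplasmic reticulum. Its 115-bp exon (chr21:46221199-46221313, minus strand) was at 0.88 and 0.78 in control, 0.25 and 0.16 with BRG1-mut and 0.31 in BRM-wt replicate 1. MPST, an enzyme that makes hydrogen sulfide, had a 176-bp exon (chr22:37419793-37419968, plus strand) at 0.8 and 0.7 in control and 0.16 and 0.21 with BRG1-mut, and it was in no other table. TSSC4, an assembly factor of spliceosomal snRNPs, had a 172-bp exon (chr11:2423206-2423377, plus strand) at 0.85 and 0.44 in control, 0.27 and 0.14 with BRG1-mut and 0.21 in BRM-wt replicate 1. In all of these both BRG1-mut libraries lay below both controls. The splice sites of the UBE2G2 and MPST exons are printed for comparison with those of UGP2.
UBE2G2 acceptor: attttttcttttcttggcagCCT
UBE2G2 donor: AAGgtcaga
MPST acceptor: ccagctactgttcctattagGTC
MPST donor: GAGgtgagg
Both acceptor windows end in AG before the exon and both donor windows begin the intron with GT.

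With BRM-wt, 8 exons were higher and 2 lower than control in both replicates. The largest mean increases were in ADAP2, TPRKB and SUOX. The 110-bp ADAP2 exon printed above was at 0.45 and 0.44 in control and 0.82 and 0.91 with BRM-wt, and at 0.79 in BRM-mut replicate 2. A 92-bp form of the same ADAP2 exon, which shares its donor site, was at 0.66 and 0.55 in control and 0.92 and 0.94 with BRM-wt, and the 2 forms are not independent. SUOX was at 0.56 and 0.46 in control, 0.86 and 0.87 with BRM-wt and 0.82 in BRG1-mut replicate 2. TPRKB, of the KEOPS complex that modifies tRNA, had a 61-bp exon of a non-coding transcript (chr2:73961655-73961715, minus strand) at 0.5 and 0.55 in control and 0.87 and 0.93 with BRM-wt. This exon was listed in 6 tables and its PSI was 0.87 to 0.94 in every one. The 2 lower exons were in C6orf52 (0.52 in both controls, 0.05 and 0.14 with BRM-wt, 0.09 in BRG1-wt replicate 1) and in GGCT, printed above, at 0.88 in both controls and 0.79 and 0.66 with BRM-wt. The base mean of C6orf52 was low, at 30.1 to 36.3. The GGCT exon was listed with a different downstream exon in each replicate, and no message was computed for that of replicate 2.

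With BRM-mut, the 2 exons that were higher in both replicates were in TIRAP and GCSH. TIRAP is an adaptor of Toll-like receptors, and its 169-bp 5' UTR exon (chr11:126159560-126159728, plus strand) was at 0.27 and 0.37 in control, 0.78 and 0.9 with BRM-mut and 0.7 in BRM-wt replicate 1. Its donor site starts with GC and not GT, as the window shows.
TIRAP donor: ATGgcaggt
The GCSH exon printed above was at 0.13 and 0.03 in control, 0.36 and 0.21 with BRM-mut and 0.43 and 0.24 with BRG1-mut, so by these values the form without the exon was the main one in control. GCSH has pseudogenes that may take reads. The exons with the largest mean decrease were in PPM1K, PMS2P6 and CCND3. PPM1K, a mitochondrial phosphatase of branched-chain amino acid breakdown, had a 107-bp 5' UTR exon (chr4:89199688-89199794, minus strand) at 0.48 and 0.83 in control, 0.1 and 0.12 with BRM-mut and 0.26 in BRM-wt replicate 2. CCND3 encodes cyclin D3, and its exon 4 of 5 (137 bp, chr6:41904297-41904433, minus strand) was at 0.68 and 0.88 in control and 0.36 and 0.67 with BRM-mut, while it was at 0.92 in BRG1-mut replicate 1 and in BRM-wt replicate 1 and at 0.36 in BRM-wt replicate 2. The higher BRM-mut value of CCND3 lay just below the lower control.

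**Figure D5:**
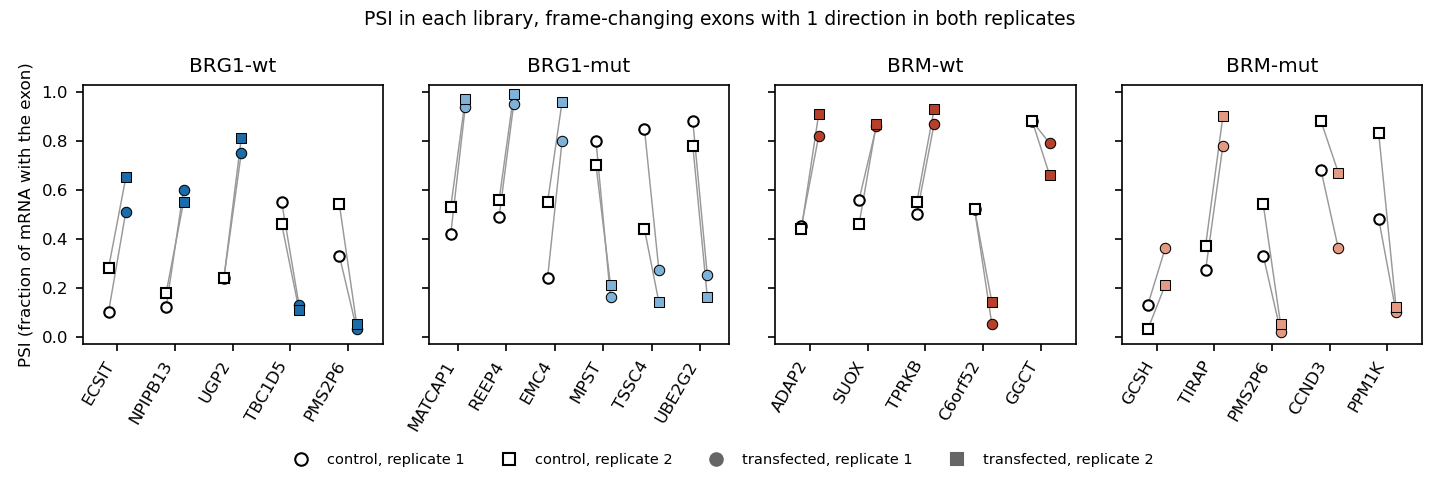
PSI (y axis, fraction of mRNA with the exon) in each library for the exons with the largest mean change in each group among those with 1 direction in both replicates that are reported here. Open symbols are the control and filled symbols the ATPase libraries, circles replicate 1 and squares replicate 2, with a line joining the libraries compared. Control values are those of the events listed with that group, and for UGP2 the filled symbols lie at 0.75 and 0.81 above both open ones at 0.24.

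Most frame-changing exons were listed once, as were most exons of either kind. Of the 1145, 754 were listed in 1 table, 214 in 2, 97 in 3, 46 in 4, 26 in 5, 7 in 6 and 1 in 7. The share listed in 1 table was 65.9%, beside 63.5% of the frame-preserving and 62.3% of all listed exons, and the share in at least 5 tables was 2.97%, beside 3.37% and 3.64%. Of the 34 listed in at least 5 tables, 19 were in the coding sequence (55.9%, 37.9 to 72.8), against 251 of the 754 listed once (33.3%, 29.9 to 36.8). Their GC content was 55.5% ± 9.57, against 49.7% ± 9.54 in those listed once. MED20, listed in 6 tables, was at 0.99 in both controls and at 0.92 to 0.94 in all 6 ATPase libraries listed, so the skipped form with the premature stop codon stayed a minor form. In PYCR1, SUMF2, MAGED1 and RPS2, as in EMC4, BRM-wt replicate 2 was lower than its control while BRM-wt replicate 1 was higher than its own. PYCR1 was at 0.135 and 0.39 in control, 0.32 and 0.51 with BRG1-wt, 0.585 and 0.615 with BRG1-mut, and 0.66 and 0.1 with BRM-wt. SUMF2, of the family of the formylglycine-generating enzyme, was at 0.62 and 0.89 in control, 0.96 and 0.98 with BRG1-mut, and 0.96 and 0.42 with BRM-wt. MAGED1, a MAGE family protein, was at 0.49 and 0.69 in control, 0.81 and 0.9 with BRG1-mut, and 0.74 and 0.38 with BRM-wt. RPS2 was at 0.54 and 0.75 in control, 0.78 and 0.64 with BRG1-mut, and 0.87 and 0.52 with BRM-wt.

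How far a change depended on which control library was used could be read for exons with a PSI in both. Against the control library of the other number, the median absolute change with BRG1-wt replicate 1 was 0.065 in place of 0.31 (n = 68), and 40 of the 68 exons kept their direction. It was 0.05 in place of 0.215 with BRM-mut replicate 2 (25 of 42), 0.08 in place of 0.33 with BRG1-mut replicate 1 (78 of 99), 0.0875 in place of 0.3325 with BRM-wt replicate 1 (103 of 118) and 0.1 in place of 0.32 with BRM-wt replicate 2 (103 of 121). With BRG1-wt replicate 2 it was 0.17 in place of 0.35 (29 of 39). In BRG1-mut replicate 2 it was 0.265 in place of 0.275 (65 of 72), and in BRM-mut replicate 1 0.25 in place of 0.22 (54 of 60). The exons were listed for their difference from their own control, and a value in the other control is given only where a table of that replicate listed the exon too, so both choices bear on these values.

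Frame-changing exons were also counted in lists of genes by function, and they made up 26.3% to 50% of the listed exons of a list, beside 38.6% of all listed exons. The direction counts of the lists below stand beside these shares of all listed exons with a higher PSI. They were 56.1% in BRG1-wt, 56.9% in BRG1-mut, 60.2% and 43.0% in the BRM-wt replicates and 49.1% in BRM-mut. In the SWI/SNF list, 5 exons of 19 listed were frame-changing, in PBRM1, SS18, BCL7B and BRD9, and none lay in SMARCA4 or SMARCA2. The 142-bp 5' UTR exon of PBRM1, a bromodomain subunit, was at 0.4 in control replicate 2 and 0.78 in BRG1-wt replicate 2. BCL7B exon 3 of 6 (97 bp), whose skipping stops the frame after 88 codons in place of 202, was at 0.98 in control replicate 1, 0.88 in BRG1-wt and 0.86 in BRG1-mut replicate 1. A 133-bp exon of BRD9 found in NMD transcripts was at 0.78 in control replicate 1 and 0.95 to 0.97 in BRG1-wt, BRG1-mut and BRM-mut replicate 1. In SS18, a 124-bp poison exon was listed with 2 different downstream exons, at 0.57 and 0.06 in BRM-mut replicate 1 against 0.06 and 0.01 in control. A second SS18 exon of 136 bp was at 0.22 in BRM-wt replicate 2 against 0.78 in control, and with another upstream exon at 0.02 in BRM-mut replicate 2 against 0.23 in control. None of these 5 was listed in both replicates of a group. MYL6, GADD45A and MAZ, which the study followed, held no listed frame-changing exon of this length.

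The list of splicing and RNA-binding genes held 25 frame-changing exons of 68 listed, in 20 genes, with 3 of 7 higher in BRG1-wt, 5 of 8 in BRG1-mut, 5 of 7 and 4 of 6 in the BRM-wt replicates and 3 of 9 in BRM-mut, and only that of HNRNPH1, an hnRNP protein, had the same direction in both replicates of a group. This poison exon of 134 bp was at 0.04 and 0.03 in control and 0.02 in both BRM-mut libraries. SNRPA1, a protein of the U2 snRNP, had a 101-bp 5' UTR exon at 0.08 with the empty vector and 0.48 with BRM-wt in replicate 2. DDX11, a DNA helicase that the list takes in by its name, had a 158-bp coding exon at 0.4 in control replicate 1 and 0.75 to 0.89 in replicate 1 of both BRG1 groups and of BRM-wt. KHDRBS3, an RNA-binding protein of the STAR family, had a 131-bp exon that is not annotated at 0.02 in control and 0.61 in BRM-wt replicate 1.

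Zinc finger genes held 44 frame-changing exons of 102 listed (43.1%), in 39 genes, with 6 of 14 higher in BRG1-wt, 7 of 11 in BRG1-mut and 5 of 14 in BRM-mut. In BRM-wt, 2 of 6 were higher in replicate 1 (beside 60.2% of all listed exons) and 1 of 12 in replicate 2 (beside 43.0%), and no exon was in both. The ZNF107 5' UTR exon of 127 bp was at 0.79 with the empty vector and 0.11 with BRM-wt in replicate 1, and the ZNF708 exon of 182 bp was at 0.74 with the empty vector and 0.09 with BRM-wt in replicate 2. The 74-bp exon of ZBTB49 was at 0.87 in control and 0.17 in BRG1-wt replicate 1. Zinc finger genes share sequence, so reads may be split between them.

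The ubiquitin list held 41 of 102 listed exons, in 39 genes, with 1 of 6 higher in BRG1-wt, 9 of 19 in BRG1-mut, 3 of 7 and 7 of 16 in the BRM-wt replicates and 3 of 11 in BRM-mut. Besides UBE2G2, PSMC6, an ATPase of the proteasome, had a 62-bp exon at 0.91 in control replicate 2 and 0.36 in BRG1-mut replicate 2, and RNF182, a ubiquitin ligase, a 155-bp 5' UTR exon at 0.38 in control, 0.9 in BRG1-mut and 0.84 in BRM-mut replicate 2. Membrane traffic genes held 31 of 96, in 24 genes, with 3 of 8 higher in BRG1-wt, 6 of 11 in BRG1-mut, 4 of 7 in each BRM-wt replicate and 5 of 6 in BRM-mut. ARHGEF3 had a poison exon of 155 bp at 0.12 in control replicate 2, 0.65 in BRG1-mut and 0.77 in BRM-wt replicate 2. The other exons of TBC1D5 with large changes were at 0.1 and 0.19 in control replicate 2 and 0.77 and 0.82 in BRM-mut replicate 2, the reverse in direction of its 94-bp exon with BRG1-wt.

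The mitochondrial list held 22 of 44 listed exons, with 2 of 6 higher in BRG1-wt, 4 of 9 in BRG1-mut, 4 of 9 and 3 of 4 in the BRM-wt replicates and 5 of 7 in BRM-mut. TIMMDC1, an assembly factor of respiratory complex I, had a 68-bp coding exon at 0.95 and 0.97 in control and 0.49 in BRM-wt replicate 1. With BRG1-mut this exon was at 0.69 and 0.52, below both controls in both replicates. NDUFS8, a subunit of that complex, had a 178-bp 5' UTR exon at 0.66 in control replicate 2 and 0.09 in BRG1-mut replicate 2. Signalling kinases held 20 of 54, with 1 of 3 higher in BRG1-wt, 6 of 11 in BRG1-mut, 2 of 5 and 3 of 4 in the BRM-wt replicates and 2 of 6 in BRM-mut. MAP3K13 had a 184-bp coding exon at 0.19 in control replicate 2 and 0.82 in BRM-mut replicate 2, and CDK20 a 124-bp exon at 0.83 in control replicate 1, 0.28 in BRG1-mut and 0.49 in BRM-wt replicate 1. DNA repair and replication genes held 18 of 39, with 0 of 5 higher in BRG1-wt, 4 of 4 in BRG1-mut, 3 of 4 and 1 of 6 in the BRM-wt replicates and 3 of 7 in BRM-mut. These counts are small, and no exon of this list had the same direction in both replicates of a group. ERCC6L2 had a 127-bp exon of an NMD transcript at 0.14 in control replicate 2 and 0.85 in BRG1-mut replicate 2. Chromatin genes held 10 of 31, with 1 of 1 higher in BRG1-wt, 2 of 3 in BRG1-mut, 2 of 2 and 0 of 4 in the BRM-wt replicates and 1 of 1 in BRM-mut. SIRT2, a NAD-dependent deacetylase, had a 70-bp exon, with a premature stop codon when included, at 0.58 in control replicate 1 and 0.06 in BRG1-mut replicate 1, and HDAC11, a histone deacetylase, a 101-bp coding exon at 0.49 in control replicate 2 and 0.95 in BRG1-mut replicate 2.

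Levels of the host genes were read from the gene tables. Of the 996 genes, 975 were found in the gene tables, with a median base mean of 1395 to 1520 in the 4 tables, beside 1913 to 1989 for the genes of frame-preserving exons and 24.0 to 26.1 for all genes above 0. A base mean under 100 was found for 81 to 84 of the 975 genes, and among the genes named above the level was 30.1 to 36.3 in C6orf52, 112 to 140 in GCSH, 328 to 351 in TIRAP, 555 to 629 in ADAP2 and 1800 to 1956 in MED20. These levels are the authors' means over control and ATPase libraries together, so they do not give the depth of a PSI in 1 library.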

How the data were processed

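RNA-seq of polyadenylated RNA from 10 libraries was analysed. The authors mapped reads with TopHat2 2.0.4 to GRCh37 and ran MISO on pairs of libraries, an ATPase and a control library with 1 replicate number. The deposited PSI is a fraction, and the Bayes factor was used only through the authors' listing threshold of 10. The authors counted reads with HTSeq 0.6.1 and ran DESeq2, and the deposited base mean, used here as a score of gene level, is a mean over 4 libraries. Those tables also hold fold changes and p-values, which were not used, and an identical copy of 1 gene table was left out. The PSI of an exon was the mean over its events in a table, and control PSI values were identical in all tables of a replicate (3723 of 3723), so the pairing comes from the tables themselves.

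Exons were matched by coordinates to GENCODE release 44 on GRCh37. Stop codons were found by splicing the exon out of, or into, an annotated complete coding transcript. The members, gene lists and alternatives were chosen with earlier results of these data known. Named exons were the 3 with the largest mean increase and the 3 with the largest mean decrease in each group among those with 1 direction in both replicates, at most 8 listed in the most tables, those in the genes the study followed and in SWI/SNF genes, and at most 3 for each gene list by mean absolute change. The steps recovered 100% of 600 simulated exon directions and 100% of 200 simulated stop codons. Python 3.11.15, pandas 2.3.3, numpy 2.4.6, scipy 1.17.1, pysam 0.24.0 and matplotlib 3.10.9 were used. Depth per sample is not given by the tables used here. Some genes that these rules name are not reported here.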

Additional observations from a re-analysis of the deposited data

How the results depend on the processing

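Of 146 values under 14 alternatives, 118 stayed inside the interval of the value reported, none reversed a share or difference whose interval left out its midpoint, and 28 moved. Without the pairing by replicate (no replicate block), only exons with a PSI in both control libraries could be used. Against the control library of the other number, 62.6% of 91 and 66.2% of 71 exons were higher in BRG1-mut replicates 1 and 2. In BRM-wt replicate 1 it was 73.2% of 112. Against their own control, with exons equal to the other control kept, the counts were 68 of 99, 48 of 72 and 88 of 118. In BRG1-mut, 97.6% of 41 exons had 1 direction against the other control. Without the block, against the mean of both controls, the share was 73.1% in BRG1-wt, 67.5% in BRG1-mut and 60.5% in BRM-wt. When both replicates were required, the share was 73.0% of 37 in BRG1-mut, 80% of 10 in BRM-wt and 20% of 10 in BRM-mut. The difference in GC content was then 10.6 points in BRG1-wt (6 exons higher, 5 lower), 9.01 in BRG1-mut (27 and 10), 9.22 in BRM-wt (8 and 2) and -6.76 in BRM-mut (2 and 8). In that order the intervals were 3.08 to 18.1, 3.74 to 14.3, 3.08 to 15.4 and -19.6 to 6.07. Both overlapping forms of the ADAP2 exon were among the 8 of BRM-wt. Leaving out 1 replicate gave 43.6% to 61.9% and -7.59 to 7.74 points of GC content in BRM-wt, replicate 1 being the higher. Without exons that share an end, 5.36% of 56 BRM-wt exons had 1 direction and 3.57% did not overlap. Among the 136 exons listed in both replicates of a group, 52.2% were coding, 15.4% in the 5' UTR and 8.82% each in NMD and non-coding transcripts, and a premature stop codon followed skipping in 39.3% and inclusion in 77.8%. With any earlier stop codon counted, those shares over all exons were 88.0% and 96.2%. The causes were not tested, other than that fewer exons enter where both replicates or both control values are required. A change of at least 0.2, each event counted, annotated exons only, 81 to 180 bp, exons opposite between groups left out and GC content with 100 bp on each side kept the values they apply to inside the intervals reported, though without exons opposite between groups the GC difference of BRM-mut was -2.02 points, with an interval that reaches 0.014, and without replicate 1 it was -2.24 (to 0.304).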
